A study of Rattus norvegicus with 14 samples.

Results

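Apolipoproteins are the protein coats of the lipoproteins that carry triglyceride and cholesterol in plasma, and hepatic lipase is the enzyme that trims these particles at the liver surface. The 9 genes described here are Apoa1, Apoa2, Apoa4, Apob, Apoc1, Apoc3, Apoe, Apoh and Lipc, taken as every probe set whose platform symbol was 1 of these names. They were measured by 18 of the 8740 probe sets on the array besides controls. Apob had 5 probe sets, Apoc3 had 3, Apoa1, Apoe and Apoh had 2 each, and Apoa2, Apoa4, Apoc1 and Lipc had 1 each. No probe set carried a member together with another symbol, and Apobec1, whose name only contains the letters of a member, was not counted as a member.

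The samples were livers of 74-day-old male rats, profiled on single-channel Affymetrix rat arrays. The deficient group had received a vitamin A-deficient diet and the sufficient group a vitamin A-sufficient diet, in both cases for 53 days. The rat strain is not given in the sources used here, and no agent or genotype beside the diet is named. Of the 14 arrays, 7 belonged to each diet: the numbers 1 to 4 from about 10 µg of total RNA and the numbers 1, 2 and 4 repeated from about 2 µg. After the shift between RNA amounts had been removed, arrays that share diet and number were averaged, and each such mean is called a liver here, so n = 4 per diet. Whether those arrays came from a common animal is not given in the labels, and p-values therefore reflect only how far the averaged samples spread. Liver 3 of each diet rests on its 10 µg array alone.

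Levels are log2 of the scaled intensity plus 16, and differences are deficient minus sufficient on that scale. An intensity shows the amount of a transcript relative to the rest of the RNA, and in whole liver fewer cells of a type and less RNA per cell cannot be told apart. Levels of different probe sets are not compared, since each binds with its own strength. All 18 probe sets passed the filter on dim signals, and 16 lay above the 90th percentile of mean level. Of 13 tested hepatocyte markers 0 passed, against 1.72% of all tested probe sets, and 3 had an unadjusted p under 0.05, against 14.5%. Their differences lay above 0 for 12, against 58.4% of all tested, with a median of 0.15. Pck1 was the 1 marker below 0, at -0.62. Ass1, Fga and Cps1, the 3 with an unadjusted p under 0.05, differed by 0.48, 0.23 and 0.23. Ttr averaged 14.90 in deficient and 14.87 in sufficient livers. The part of this shift in the member values was not tested. Summed over 13 markers, their scaled intensity was 301088 to 333679 in deficient livers and 254384 to 315670 in sufficient livers.

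In vertebrate liver, Apob forms the backbone of each very low density lipoprotein, the C and E apolipoproteins ride on its surface and steer lipolysis and uptake, and the A apolipoproteins build high density lipoprotein. Hepatic nuclear receptors, among them Hnf4a and the heterodimers of the retinoid X receptor, bind upstream of many of these genes at repeats of the hexamer AGGTCA. That is the link, as background, between this gene family and vitamin A, whose metabolite retinoic acid is a ligand of such receptors.

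Upstream sequence was in the RefSeq promoter table (GRCr8) for 5 members, Apoa4, Apoc1, Apoe, Apoh and Lipc, in 8 entries, since Apoc1 had 2 and Apoe 3 annotated starts. The 250 bases before each start were searched on both strands for direct repeats of that hexamer with a spacer of 1 or 5 bases, for CAAAGTCCA, a core bound by Hnf4a, for AGGTCA alone, which both repeats contain, and for TATAAA. Lipc was the 1 member entry of 8 with a match, holding AGGTCA on each strand, at bases 244 to 239 and 232 to 227 before the start. Among all 33469 promoters, AGGTCA was held by 14.1%, TATAAA by 12.9%, CAAAGTCCA by 0.338%, the repeat with the shorter spacer by 0.0508% and that with the longer by 0.00896%. The Lipc sequence is shown for its matches, and that of Apoa4 because it was the 1 gene with a lower level among those at an unadjusted p under 0.05. Both are written in the direction of the gene, with AGGTCA and its complement in capitals, the Lipc stretch being chr8:80516286-80516535 on the minus strand and the Apoa4 stretch chr8:55435529-55435778 on the plus strand. A match describes letters, not binding.
Lipc: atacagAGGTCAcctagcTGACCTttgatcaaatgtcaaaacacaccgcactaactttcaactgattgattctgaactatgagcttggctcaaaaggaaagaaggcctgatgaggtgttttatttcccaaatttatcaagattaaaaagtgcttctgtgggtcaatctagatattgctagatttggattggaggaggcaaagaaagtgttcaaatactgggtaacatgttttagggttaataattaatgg
Apoa4: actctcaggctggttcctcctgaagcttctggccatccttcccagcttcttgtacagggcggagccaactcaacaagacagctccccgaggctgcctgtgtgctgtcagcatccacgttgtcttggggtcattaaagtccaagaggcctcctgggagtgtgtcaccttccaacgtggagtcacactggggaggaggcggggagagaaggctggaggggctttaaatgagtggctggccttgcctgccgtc

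Across the family, the diet comparison asked whether transcripts of lipoprotein proteins differed in livers fed without vitamin A. In limma 0 of the 18 probe sets passed an adjusted p of 0.05, against 1.72% of all 5244 tested. At an unadjusted p under 0.05 there were 4, both Apoa1 probe sets and 1 of the 2 of Apoh on the higher side and Apoa4 on the lower side, against 14.5% of all tested, 9.08% higher and 5.38% lower. No probe set separated the diets without overlap, against 8.91% of all tested that did, 5.84% higher and 3.07% lower. Differences lay above 0 for 14 of the 18 and below 0 for 4, against 58.4% and 41.6% of all tested, and their median of 0.09 stood beside a median of 0.04 over all tested probe sets. All but the 2 of Apoa1 were smaller than 0.5 in size, and Apoa1 stood furthest from 0 in the plot of differences by probe set.

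**Figure D1:**
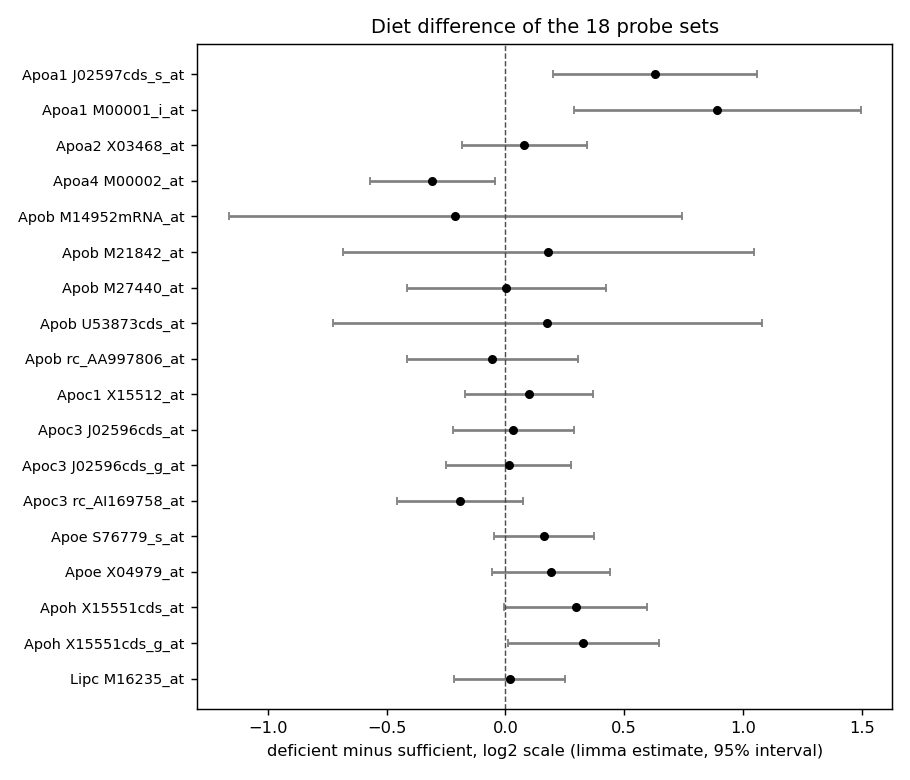
Diet difference of each of the 18 probe sets, deficient minus sufficient on the log2 scale (points, limma estimates) with 95% intervals (bars). The Apoa1 probe sets lie furthest to the right at 0.63 and 0.89, Apoa4 lies furthest to the left at -0.31, and the 3 Apob probe sets M14952mRNA_at, M21842_at and U53873cds_at have the widest intervals.

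Apoa1, the main structural protein of high density lipoprotein and the activator of Lcat, was higher in deficient livers by both probe sets but not beyond the adjusted threshold. By its brighter probe set (J02597cds_s_at), deficient livers 1 to 4 had 13.36, 14.08, 13.71 and 13.96, and sufficient livers 1 to 4 had 13.27, 13.48, 12.62 and 13.21. Deficient livers 2, 3 and 4 lay above every sufficient liver, while deficient liver 1 lay inside the sufficient range and sufficient liver 3 lay below all others. The means were 13.78 ± 0.32 in deficient and 13.15 ± 0.37 in sufficient livers (SD, n = 4 each), a difference of 0.63 (SE 0.20, 95% interval 0.20 to 1.06, limma adjusted p = 0.156), or 1.55-fold.

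The second Apoa1 probe set (M00001_i_at) ordered the livers much the same way. It gave 13.11, 14.23, 13.96 and 14.19 in deficient livers 1 to 4, and 12.87, 13.44, 12.34 and 13.27 in sufficient livers 1 to 4. Again 3 of the 4 deficient livers exceeded every sufficient liver and deficient liver 1 did not. The difference was 0.89 (SE 0.27, limma adjusted p = 0.152), or 1.86-fold. Over the 8 livers, with diet means not removed, the levels of both probe sets correlated at r = 0.97, a description of values that share arrays.

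Whether Apoa1 passed differed between fits. With all 14 arrays fitted and diet and number as a random replicate block, both probe sets passed. They stood at 0.59 (limma adjusted p = 0.0315) and 0.83 (adjusted p = 0.0447), in a fit that called 250 probe sets in place of 90. That fit gave all probe sets 1 common correlation between repeat arrays, 0.363. For Apoa1 the SD between livers was 7.86 and 3.52 times the SD between the arrays of a liver. The fit thus counted Apoa1 repeats as more independent than their spread shows, and its p-values for Apoa1 may be too small. Without deficient liver 1 the second probe set passed as well, at 1.14 (adjusted p = 0.0402), and the first did not, at 0.77 (adjusted p = 0.0825). Without sufficient liver 3 the differences were 0.45 and 0.68 (adjusted p = 0.283 and 0.309). Within the 2 µg arrays, which lack liver 3 of each diet, they were 0.44 and 0.74. Within the 10 µg arrays, which include it, they were 0.65 and 0.82.

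**Figure D2:**
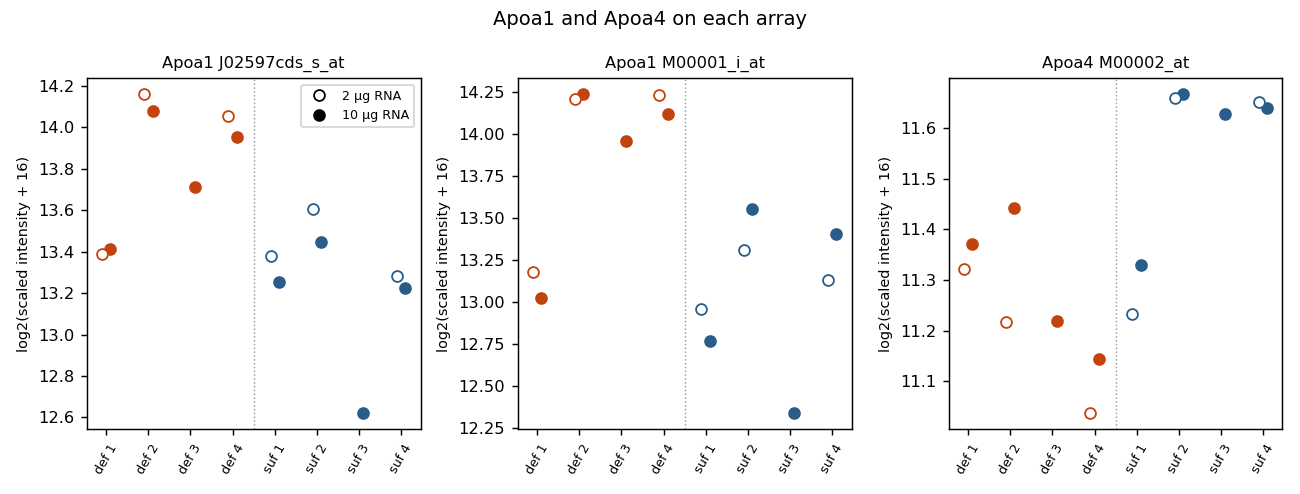
Level of both Apoa1 probe sets and of Apoa4 on each array, as log2 of the scaled intensity plus 16, by liver, with deficient livers (def, left) and sufficient livers (suf, right) separated by a dotted line. Open points are 2 µg arrays and filled points 10 µg arrays. Deficient livers 2, 3 and 4 lie above the sufficient livers for Apoa1, and sufficient livers 2, 3 and 4 lie above the deficient livers for Apoa4.

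Apoa4, an apolipoprotein of intestine and rodent liver that associates with chylomicrons and high density lipoprotein, pointed the other way. Its level was 11.39, 11.37, 11.22 and 11.13 in deficient livers 1 to 4, and 11.32, 11.70, 11.63 and 11.69 in sufficient livers 1 to 4. Sufficient liver 1 was the exception, lying among the deficient livers, and the other 3 sufficient livers lay above all deficient ones. The means were 11.28 ± 0.12 and 11.58 ± 0.18 in deficient and sufficient livers (SD, n = 4 each), a difference of -0.31 (SE 0.12, 95% interval -0.57 to -0.05, limma adjusted p = 0.267). Of 6 enterocyte markers on the array 3 were tested and 0 passed: Anpep averaged 10.54 in deficient and 10.25 in sufficient livers, Alpi 7.52 and 7.47, and Lct 6.39 and 6.48. The other 3, Fabp2, Rbp2 and Si, did not reach the filter: they averaged 4.95, 4.52 and 4.37 in deficient and 5.24, 4.52 and 4.31 in sufficient livers, where an intensity of 0 would read 4.

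Apoa2, another major protein of high density lipoprotein, did not pass. Its level was 14.82, 14.58, 14.24 and 14.45 in deficient livers 1 to 4, and 14.47, 14.52, 14.30 and 14.48 in sufficient livers 1 to 4. Deficient livers spread on both sides of the narrow sufficient range. The difference was 0.08 (SE 0.12, 95% interval -0.18 to 0.34, limma adjusted p = 0.846).

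Apoa1, Apoc3 and Apoa4 are neighbours on rat chromosome 8, as are Apoc1 and Apoe on chromosome 1, in the RefSeq gene order. A scaling factor of an array cancels in the ratio of neighbours within a liver, so their diet differences were set against each other in 4 ratios, chosen after the values had been seen. The log2 ratio of Apoa1 over Apoa4 was 1.97, 2.71, 2.49 and 2.83 in deficient livers 1 to 4, and 1.95, 1.78, 0.99 and 1.53 in sufficient livers 1 to 4. All 4 deficient livers exceeded all 4 sufficient livers, deficient liver 1 by 0.02. The difference was 0.94 (exact two-sided permutation p = 0.0286, the smallest that 4 against 4 allows, and 0.0762 adjusted over the 4 ratios). With the other Apoa1 probe set it was 1.20 (exact permutation p = 0.0571).

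The ratio of Apoa1 over Apoc3 was higher in deficient livers by 0.60 (exact permutation p = 0.0571, adjusted p = 0.0762), with 3 of 4 deficient livers above every sufficient liver. Apoc3 over Apoa4 differed by 0.34 (exact permutation p = 0.0857, adjusted p = 0.0857). Apoe over Apoc1 differed by 0.09 (exact permutation p = 0.0571, adjusted p = 0.0762), with 3 of 4 deficient livers above every sufficient liver. Thus none of the 4 ratios passed after adjustment. With 4 livers per diet, a ratio at the smallest exact permutation p, 0.0286, could not pass this adjustment on its own. The adjusted values therefore cannot decide about a single ratio. The values are in the plot of ratios within each liver.

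**Figure D3:**
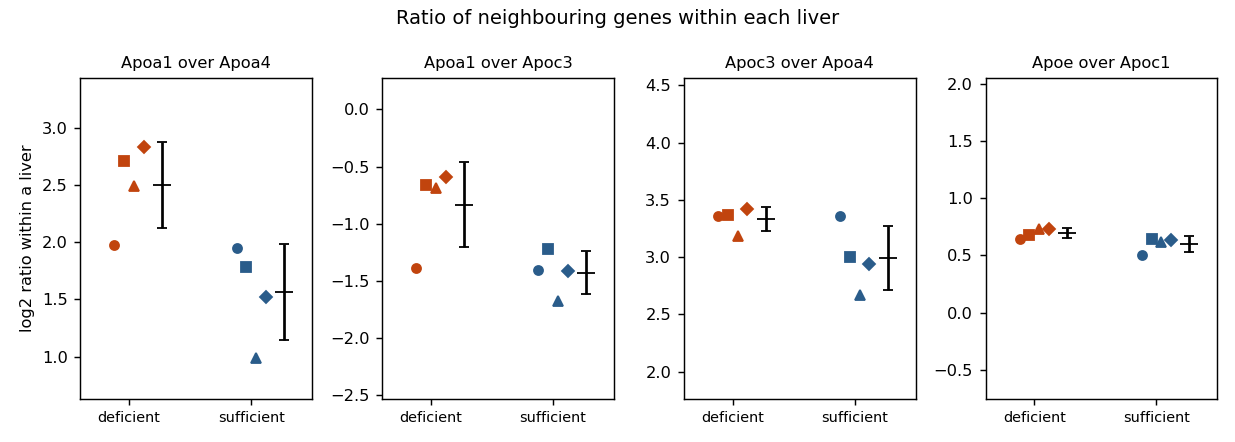
Log2 ratio of neighbouring genes within each liver (points, a marker shape per liver number) by diet, with mean and SD (bars, n = 4 livers). The height of a ratio carries no meaning between different probe sets, only its difference between diets does. Apoa1 over Apoa4 is higher in all 4 deficient than in all 4 sufficient livers, and Apoe over Apoc1 averages 0.69 in deficient and 0.60 in sufficient livers.

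Neither C apolipoprotein passed. Apoc1, a small surface protein that activates Lcat and slows particle uptake, had 15.00, 14.96, 14.63 and 14.75 in deficient livers 1 to 4, and 14.84, 14.84, 14.41 and 14.84 in sufficient livers 1 to 4. Sufficient liver 3 stood alone below its group, whose other members all read 14.84. The difference was 0.10 (SE 0.12, 95% interval -0.17 to 0.37, limma adjusted p = 0.804). Apoc3, an inhibitor of lipoprotein lipase, gave 14.74, 14.74, 14.40 and 14.55 in deficient livers 1 to 4 by its brightest probe set, and 14.68, 14.70, 14.30 and 14.62 in sufficient livers 1 to 4. In both diets liver 3 was the lowest. The difference was 0.03 (SE 0.12, 95% interval -0.22 to 0.29, adjusted p = 0.942), and the other probe sets gave 0.01 and -0.19, so the 3 did not share a sign.

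Apoe, the ligand by which remnant particles bind hepatic receptors, did not pass by either probe set. By the brighter, deficient livers 1 to 4 had 15.64, 15.64, 15.36 and 15.47, and sufficient livers 1 to 4 had 15.34, 15.49, 15.04 and 15.47. Deficient livers 1 and 2 were above every sufficient liver. The difference was 0.19 (SE 0.11, 95% interval -0.06 to 0.44, limma adjusted p = 0.497), and the other probe set gave 0.16 (SE 0.10). Macrophages express Apoe too. Of 8 tested macrophage and Kupffer cell markers all 8 differences were above 0, against 58.4% of all tested probe sets, with a median of 0.27. Of these 8, 1 passed, against 1.72% of all tested: Lgals3 rose (0.77, limma adjusted p = 0.0490). Csf1r, which did not reach the filter, differed by -0.24. The scaled intensity summed over 9 markers was 9680.72 to 12823 in deficient and 7722.43 to 8541.21 in sufficient livers, and the part of these cells in the Apoe level was not tested. Without sufficient liver 3 the Apoe difference was 0.09 by the brighter probe set and 0.10 by the other, and with quantile normalization 0.02 and 0.04.

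Apob, the protein that every very low density particle carries in a single copy, gave no common direction over its 5 probe sets, whose differences ran from -0.21 to 0.18 at limma adjusted p of 0.900 to 0.995. By the brightest (M27440_at), deficient livers 1 to 4 had 13.07, 12.59, 12.98 and 12.91, and sufficient livers 1 to 4 had 13.39, 13.08, 12.56 and 12.51. The deficient livers all lay inside the sufficient range. This difference was 0.00 (SE 0.19, 95% interval -0.42 to 0.42). The 2 dimmest, M14952mRNA_at and M21842_at, averaged 6.67 and 7.36 in deficient and 6.88 and 7.18 in sufficient livers.

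U53873cds_at, a further Apob probe set, varied widely from liver to liver, and in most livers both RNA amounts gave like values. It gave 11.28, 12.29, 11.42 and 10.77 in deficient livers 1 to 4, and 11.81, 9.96, 11.83 and 11.45 in sufficient livers 1 to 4. Sufficient liver 2 was the lowest of all, at 9.96 on its 2 µg array and 10.02 on its 10 µg array, and deficient liver 2 the highest, at 12.21 and 12.43. Deficient liver 1 was the exception, at 11.65 on its 2 µg array and 10.97 on its 10 µg array. The SD between livers of a diet was 0.77, which exceeded that of 98.4% of tested probe sets and was 3.39 times the SD between the arrays of a liver. M21842_at varied with it (r = 0.86 over 8 livers, which share their arrays), whereas the 2 brightest Apob probe sets did not (r = -0.34 and -0.26), as the plot of the Apob probe sets shows.

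**Figure D4:**
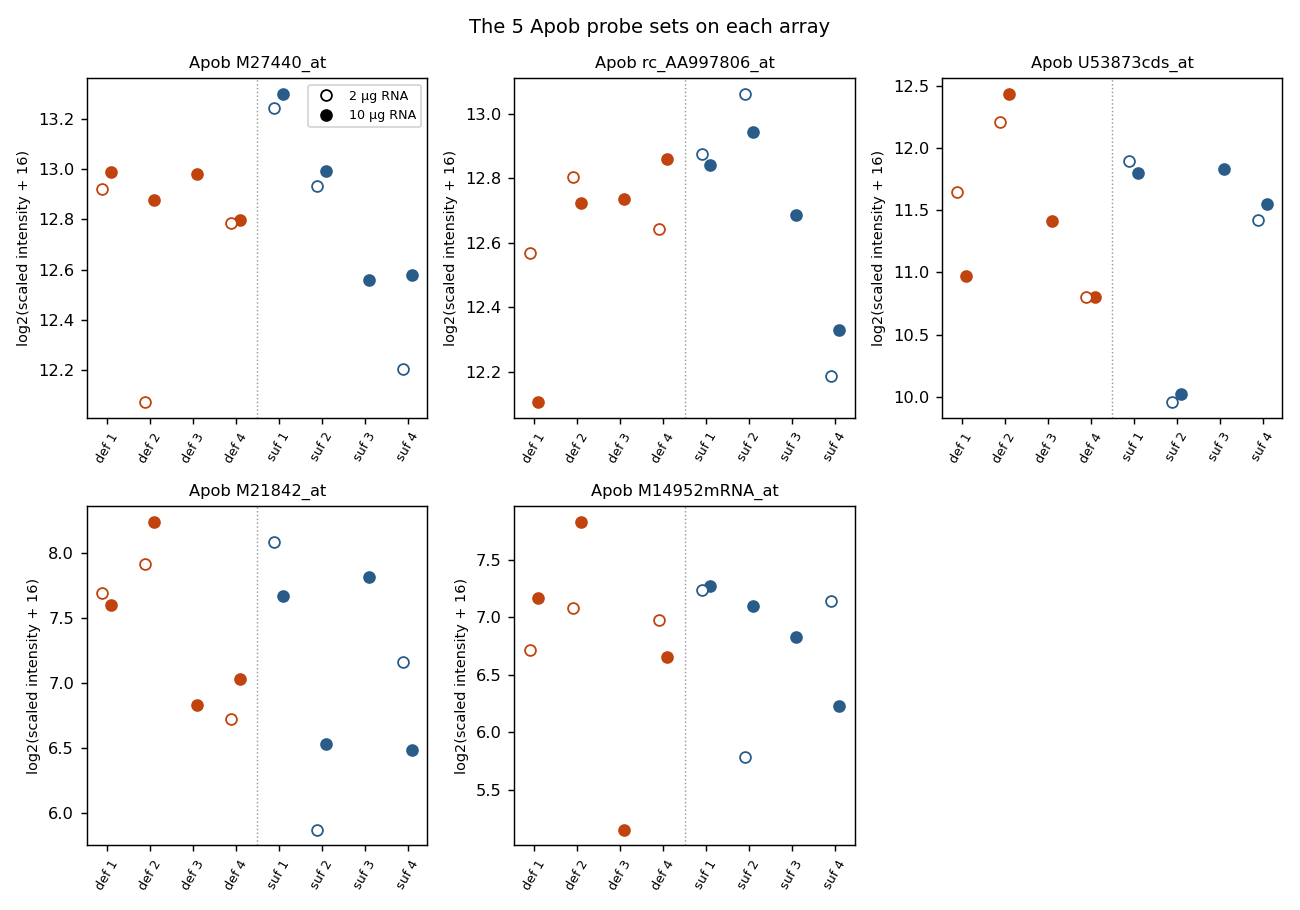
Level of the 5 Apob probe sets on each array, as log2 of the scaled intensity plus 16, by liver, with deficient livers (def, left) and sufficient livers (suf, right) separated by a dotted line. Open points are 2 µg arrays and filled points 10 µg arrays. The panel of U53873cds_at shows deficient liver 2 at 12.21 (2 µg) and 12.43 (10 µg) and sufficient liver 2 at 9.96 and 10.02, an order that the panels of the brighter M27440_at and rc_AA997806_at do not show.

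Apoh, beta-2-glycoprotein I, a phospholipid-binding plasma protein, did not pass by either probe set. By the brighter, deficient livers 1 to 4 had 13.42, 13.56, 13.43 and 13.39, and sufficient livers 1 to 4 had 13.44, 13.33, 12.74 and 12.98. Deficient livers lay close together (SD 0.08, against 0.32 in sufficient livers), sufficient livers 2, 3 and 4 lay below them and sufficient liver 1 lay among them. The differences were 0.33 (SE 0.14, 95% interval 0.01 to 0.65, limma adjusted p = 0.330) and 0.30 (SE 0.14, adjusted p = 0.354). Without sufficient liver 3 they were 0.20 and 0.21.

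Lipc, hepatic lipase, which hydrolyses triglyceride and phospholipid of remnants and high density lipoprotein, did not pass. Its level was 11.70, 11.71, 11.73 and 11.55 in deficient livers 1 to 4, and 11.46, 11.65, 11.71 and 11.80 in sufficient livers 1 to 4. The deficient livers all fell within the sufficient range. The difference was 0.02 (SE 0.11, 95% interval -0.22 to 0.25, limma adjusted p = 0.970). Its SD between livers of a diet, 0.12, was smaller than that of all but 7.25% of tested probe sets.

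**Figure D5:**
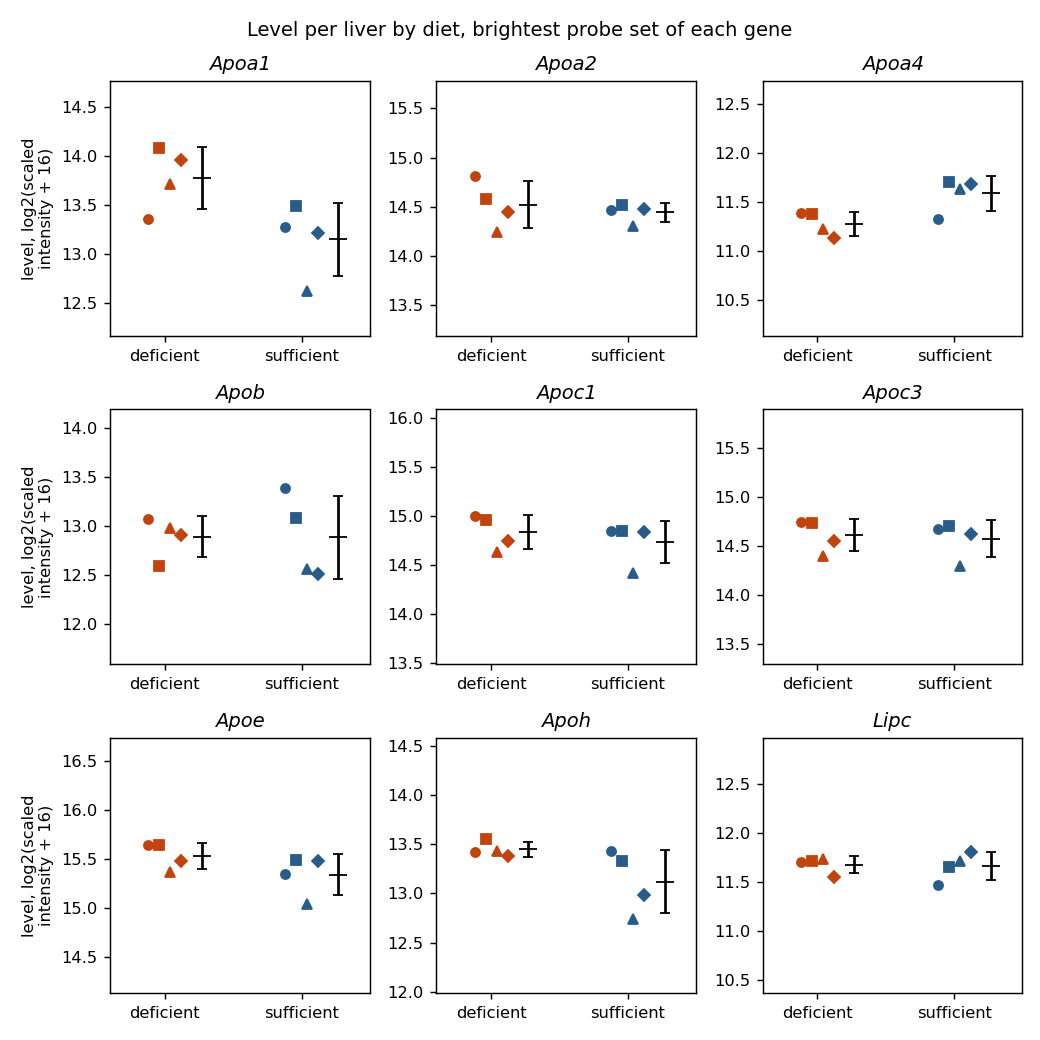
Level of the brightest probe set of each of the 9 genes, as log2 of the scaled intensity plus 16, in 4 deficient and 4 sufficient livers (points, a marker shape per liver number), with mean and SD (bars). Every panel spans the same height on the log2 scale. Apoa1 averages 13.78 in deficient and 13.15 in sufficient livers, Lipc 11.67 and 11.66, and the triangle of sufficient liver 3 is the lowest of its group for Apoa1, Apoa2, Apoc1, Apoc3, Apoe and Apoh.

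Low values of several members fell in the same liver. Sufficient liver 3 was the lowest of its group in 11 of 18 member probe sets, against 26.0% of all tested probe sets, and in 9 of 13 hepatocyte markers. Its summed hepatocyte marker intensity, 254384, was the lowest of the 8. Deficient liver 3 was the lowest of its group in 9 of the 18, against 29.7% of all tested probe sets, and in 5 of 13 hepatocyte markers. Both rest on 1 array each. As signs of RNA quality, the control probe sets at the 3' and 5' ends of GAPDH were compared on the log2 scale. They differed by 1.12 in deficient liver 3, the highest of all arrays, and by 0.73 in sufficient liver 3. Over all arrays the range was 0.53 to 1.12. For beta-actin the values were 0.49 in deficient liver 3 and 0.77 in sufficient liver 3, the latter the highest of all arrays. The range was 0.28 to 0.77. Their part in the member values was not tested.

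Members also varied together from liver to liver. Over the 8 livers, which share their arrays and scaling, the brightest probe sets of Apoc1 and Apoc3 correlated at r = 0.97, Apoe and Apoc1 at 0.93, Apoe and Apoc3 at 0.85, and Apoa1 and Apoh at 0.83. Apob and Lipc ran opposite, at -0.74, and so did Apoh and Apoa4, at -0.64. Diet means were not removed, so diet differences enter every r given here. Those of Apoh and Apoa4 were 0.33 and -0.31. Among 3126 other genes, the most alike over the same 8 values was Hp for Apoe (r = 0.98), Serpina3c for Apoc1 (0.97), Gnb1 for Apoc3 (0.98), Nubpl for Apoa2 (0.97), Plaur for Apoa1 (0.98), Slc5a3 for Apoh (0.96), Ptprg for Lipc (0.93), Rab5a for Apob (0.92) and Cyp4f6 for Apoa4 (0.90). With so many genes and 8 values, 1% of genes reached at least 0.75 to 0.88 by member.

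The genes around the family were read from lists written from general knowledge, and in limma none of their tested members passed. Over all tested probe sets 1.72% passed, 14.5% had an unadjusted p under 0.05, and the median difference was 0.04. In lipoprotein assembly and secretion 0 of 10 passed, 1 at an unadjusted p under 0.05, with a median of -0.04. Apobec1, the enzyme that edits Apob RNA in rat liver, had 7.57 ± 0.37 in deficient against 7.19 ± 0.69 in sufficient livers (SD, n = 4 each), a gap of 0.38 (SE 0.31, adjusted p = 0.655). In plasma remodelling 0 of 10 passed, 3 at an unadjusted p under 0.05, with a median of 0.16. Lcat, which esterifies the cholesterol of high density lipoprotein, had 13.02 ± 0.15 in deficient against 12.61 ± 0.21 in sufficient livers, a gap of 0.42 (SE 0.12, adjusted p = 0.140).

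Of the receptors and sterol exporters 0 of 7 passed, 1 at an unadjusted p under 0.05, with a median of 0.22. Scarb1, the hepatic receptor of high density lipoprotein, had 10.39 ± 0.21 in deficient against 9.97 ± 0.15 in sufficient livers by its brightest probe set, a gap of 0.42 (SE 0.13, adjusted p = 0.167), but its other probe sets gave 0.16 and -0.08. Of the transcription factors of apolipoprotein genes 0 of 29 passed, against 1.72% of all tested probe sets. At an unadjusted p under 0.05 were 6, against 14.5% of all tested, and the median was 0.09. Hnf4a gave 0.33 (SE 0.12, adjusted p = 0.240) by its brightest probe set and 0.47 and 0.04 by the others. Rxra, a retinoid X receptor, had 8.86 ± 0.14 in deficient against 8.86 ± 0.08 in sufficient livers, a gap of 0.00 (SE 0.12). No probe set carried Mttp or Pltp as its only symbol, so neither was read here.

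Other cell types and the clock gave the following values beside these results. Over all tested probe sets 1.72% passed, 0.725% higher and 0.992% lower in deficient livers. Of 6 erythroid markers 4 fell, Alas2 and 3 globin genes (median -1.11), of 9 stellate markers Vim rose (median -0.14), of 5 endothelial markers Lyve1 fell (median -0.02), and of 5 cholangiocyte, 3 enterocyte and 4 pancreatic acinar markers 0 passed (medians 0.18, 0.05 and -0.18). Of 6 tested clock output genes 0 passed, 3 at an unadjusted p under 0.05, and all 6 differences were above 0, against 14.5% and 58.4% of all tested probe sets. Dbp stood at 2.36 (SE 0.74, limma adjusted p = 0.157) by its brightest probe set and at 1.91 (limma adjusted p = 0.0633) by its other. Bmal1, a clock gene that did not reach the filter, differed by -1.15. Summed over 7 clock output genes, Bmal1 included, the scaled intensity was 1766.88 to 2066.36 in deficient and 783.624 to 1777.48 in sufficient livers. The part of cell types or clock phase in the member values was not tested.

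The RNA amount from which targets were made asked whether the smaller preparation altered these transcripts. In limma on the 14 arrays, 0 of the 18 member probe sets passed, against 0% of all tested, and 3 had an unadjusted p under 0.05, against 6.62% of all tested. Differences of 2 µg minus 10 µg ran from -0.19 to 0.20. Liver 3 of each diet had no 2 µg array, so this fit mixes RNA amount with which livers were present. With diet and number as a replicate block the differences ran from -0.23 to 0.16. Lipc averaged 11.48 ± 0.16 at 2 µg and 11.67 ± 0.09 at 10 µg (SD) and was lower at 2 µg in 6 of 6 pairs, by -0.16 with diet and number as a replicate block (adjusted p = 0.274). Apoa2 was higher at 2 µg in 6 of 6 pairs, by 0.11 (block adjusted p = 0.321). Apob by M27440_at was lower at 2 µg in 6 of 6 pairs, with a block difference of -0.23 (adjusted p = 0.364), the furthest from 0 of the 18. With that block 0 of the 18 passed, while 0.0381% of all tested passed, 0.0191% higher and 0.0191% lower at 2 µg. At an unadjusted p under 0.05 there were 6 of the 18, against 12% of all tested.

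Whether the diet difference of a member depended on the RNA amount was tested as an interaction. For it limma called 0 of the 18 and 0% of all tested. Of the 18, 0 had an unadjusted p under 0.05, against 1.83% of all tested. This fit took the arrays as separate samples without their pairing, so the spread between livers entered its error. The absence of calls therefore does not show that the diet differences were equal at both amounts. With diet and number as a random replicate block, 0 of the 18 and 0% of all tested were called as well. The diet difference at 2 µg minus that at 10 µg ran from -0.26 to 0.36, and the widest values belonged to Apob probe sets. Liver 3 of each diet had only a 10 µg array, so both amounts rest on unlike sets of livers. For Apob by M14952mRNA_at, at 0.36, deficient liver 3 read 5.15 and entered the 10 µg side alone. Apoa4 was lower in deficient livers at both amounts, with differences of -0.32 at 2 µg and -0.27 at 10 µg. Apoh by its brighter probe set was higher at both, by 0.28 at 2 µg and 0.27 at 10 µg. Sufficient liver 3, present only at 10 µg, read 12.74 for this Apoh probe set, the lowest of its group. The likeness of these Apoh differences therefore does not compare like livers.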

How the data were processed

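Total RNA was extracted with a Qiagen RNeasy kit and hybridised after the usual Affymetrix target preparation, per the labels. The authors deposited 1 table of linear intensity values. No source used here names the program or the normalization behind them. Every array's trimmed mean, with 2% taken off each end, lay between 1001.9 and 1002.1, so the deposited intensity had already been scaled. Median intensity ranged from 175.1 to 231.0, and precision is limited by how many arrays there were.

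The 59 control probe sets were left out, arrays were scaled to a trimmed mean of 500, and log2 of intensity plus 16 was taken, which understates changes of dim genes. Probe sets under the 40th percentile of mean (6.20) were left out, leaving 5244. By the platform annotation, which can be old, 7006 had 1 symbol, 308 several and 1426 none listed. In gene lists each gene was read from its brightest probe set (3135 genes tested). With limma 3.58.1 under R 4.3.3, the 8 liver values were fitted with a trend, with Benjamini-Hochberg adjustment over all tested probe sets. The RNA amount and interaction fits used the 14 arrays as separate samples. Ratios were tested with SciPy 1.17.1. Fits were tested on simulated data.

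Arrays of the same diet and number at both amounts correlated, after removal of group means, at r = 0.202 to 0.351 in each of 6 pairs, while other numbers gave -0.254 to 0.124: the pairing rests on these correlations and on equal numbers in the titles. Members and lists were chosen with earlier results of these data known. The rule for named genes took every member probe set, up to 4 genes that passed per pathway list (none did), and Mttp, Apobec1, Hnf4a, Rxra, Scarb1, Lcat and Pltp where measured; a further gene of that rule is not reported here. Cell type markers, Dbp and Bmal1 were named after their values were seen.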

Additional observations from a re-analysis of the deposited data

Results flagged for a closer look

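Within a diet, the highest or lowest of 4 livers stood apart from the rest by Dixon's criterion in 3 of 36 groups of member values, and chance gives about 1 in 20. The gap to the nearest liver was most of the whole range in each. Apob by rc_AA997806_at was low in deficient liver 1, at 12.31 against 12.72 to 12.74 in the other deficient livers. Apoc1 was low in sufficient liver 3, at 14.41 against 14.84 in the other sufficient livers. Lipc was low in deficient liver 4, at 11.55 against 11.70 to 11.73 in the other deficient livers.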

How the results depend on the processing

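Over the alternatives run, the diet difference of a member kept its direction and its side of the threshold in 349 of 394 fits, changed direction in 40 and passed in 5, all 5 of Apoa1. Both Apoa1 probe sets, Apoa4, Apoc3 by rc_AI169758_at, both of Apoe and both of Apoh kept their direction in all of their fits. The count of called probe sets was 90, and 33 with the 2 µg arrays alone, 349 with 14 separate arrays and 250 under the random replicate block of diet and number. It was 48 to 94 when a liver was left out, lowest without deficient liver 4. The count of called members was 2 with 14 separate arrays, at 0.56 and 0.79 for Apoa1, 2 with the random block, and 0 to 1 when a liver was left out. The fit of 14 separate arrays takes arrays of the same diet and number as independent samples. Its p-values are too small where such arrays share an animal. With arrays scaled to equal medians, 22.7% of calls were higher in deficient livers, against 42.2%.

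Directions turned only for differences near 0 or of wide interval. Paired values of Apoc3 are those of J02596cds_at and then J02596cds_g_at. With median scaling, Apoc3 gave -0.035 and -0.055, Lipc -0.051 and Apob by M27440_at -0.064. With quantile normalization, Apoc3 gave -0.083 and -0.051, Apoa2 -0.037 and Apoc1 -0.055. With array weights, Apoc3 (J02596cds_g_at) gave -0.030 and Apob by M27440_at -0.11. The 10 µg arrays alone gave -0.021 for Lipc, and the 2 µg arrays alone -0.060 for Apoc3 (J02596cds_g_at), 0.20 for Apob by M14952mRNA_at and -0.20 by M27440_at. With 14 separate arrays, Apoc3 (J02596cds_g_at) gave -0.0029 and Apob by M27440_at -0.055, which was -0.032 with the random block. Leaving out a liver gave Apoc3 -0.059 to 0.10 and -0.071 to 0.077, Lipc -0.049 to 0.065, Apoa2 -0.018 to 0.17, Apoc1 -0.0073 to 0.17, and Apob -0.12 to 0.17 by M27440_at, -0.21 to 0.048 by rc_AA997806_at, -0.15 to 0.42 by M21842_at, -0.26 to 0.40 by U53873cds_at and -0.50 to 0.30 by M14952mRNA_at. The cause was not tested.

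For the RNA amount, the replicate block turned Apoa1 (M00001_i_at) to -0.014, Apob to -0.22 by M14952mRNA_at and 0.060 by U53873cds_at, and Apoc1 to -0.032, and raised the count of calls from 0 to 2. Quantile normalization turned Apoc1 to -0.022. The number across diets did not pair livers (r = -0.08 to 0.07), and as a replicate block it gave 0.63 and 0.89 for Apoa1 (limma adjusted p = 0.0936 and 0.0675) and 78 calls. Of the 4 ratios, Apoe over Apoc1 reached an exact permutation p of 0.0286 with the 10 µg arrays alone, and Apoa1 over Apoc3 reached it over all livers when Apoc3 was read from rc_AI169758_at, at 0.82 and 1.08 by the Apoa1 probe sets. All 4 kept their direction in every alternative run, each chosen after the data were seen.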
